A study of Mus musculus with 31 samples.

Results

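The data describe the first chromatin response of mouse regulatory T cells (Tregs) to interleukin-2, 0.75 h after an injection. Chromatin accessibility was measured by ATAC-seq, in which a transposase cuts open DNA, in Tregs sorted from the spleens of C57BL/6 mice with an RFP-FoxP3 reporter. Of 31 libraries in 10 groups, 9 were taken at 0.75 h, and 6 of these came from mice given an IL-2 form: 3 from mice injected with 20 µg of the mIL-2/CD25 fusion (FP) and 3 from mice injected with 5 µg of mouse IL-2 (mIL-2, here IL2). They were set against 3 libraries from mice injected with 100 µL of PBS. The 6 libraries of both forms were pooled for this, so that the comparison asks for the response that the forms share. Nuclei of all 9 libraries come from reporter mice, and the labels speak of a pair of technical replicates per sample, which the table does not hold apart. The doses of FP and IL2 differ in mass, so the forms were not compared at matched doses.

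IL-2 signals through a receptor made of CD25 (encoded by Il2ra), CD122 (Il2rb) and the common gamma chain (Il2rg), and Tregs are known for their high level of CD25. The kinases JAK1 and JAK3 on the receptor phosphorylate the transcription factors STAT5A and STAT5B, which enter the nucleus and bind a palindrome known as the GAS motif, with the half-sites TTC and GAA 3 bases apart. In Tregs this pathway sustains Foxp3, survival genes such as Bcl2, and feedback inhibitors such as Cish and the Socs genes.

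The palindrome recurs in the peaks that opened, so 8 of them and a negative comparison are shown, 60 bases each on the plus strand of GRCm38, with every TTCNNNGAA in capitals. The Bcl2, Cdk6, Gm47635 and Flacc1 peaks rose, and the Cish window lies in an intergenic peak assigned to Cish that did not pass the test, at 0.17 ± 0.22. The Lef1, Ikzf3, Cd2 and Sept9 windows were chosen after their values were seen, as the large rises of genes with known T cell roles and the single window with a pair of sites.
Bcl2, chr1:106607180-106607239: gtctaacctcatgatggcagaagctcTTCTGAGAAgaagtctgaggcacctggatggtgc
Cdk6, chr5:3478034-3478093: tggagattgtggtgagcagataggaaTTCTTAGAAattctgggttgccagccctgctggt
Gm47635, chr13:85503006-85503065: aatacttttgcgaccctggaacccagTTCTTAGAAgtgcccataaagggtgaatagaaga
Flacc1, chr1:58652178-58652237: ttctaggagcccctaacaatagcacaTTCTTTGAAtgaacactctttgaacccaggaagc
Cd2, chr3:101273077-101273136: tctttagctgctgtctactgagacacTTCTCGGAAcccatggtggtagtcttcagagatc
Ikzf3, chr11:98546473-98546532: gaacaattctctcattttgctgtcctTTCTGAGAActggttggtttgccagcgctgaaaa
Lef1, chr3:131149112-131149171: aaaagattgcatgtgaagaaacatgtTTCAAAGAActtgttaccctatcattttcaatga
Sept9, chr11:117321954-117322013: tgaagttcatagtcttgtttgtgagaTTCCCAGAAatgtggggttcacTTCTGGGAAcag
Cish, chr9:107312990-107313049: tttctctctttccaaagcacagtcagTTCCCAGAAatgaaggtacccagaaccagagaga

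The deposited table held read counts for 104979 peaks, with totals of 25224386 to 34049267 counts in FP, 23634226 to 26699317 in IL2 and 18644680 to 28797834 in PBS libraries. A single peak assigned to Gm10222 and its neighbours on chromosome 1 took 20.99 to 32.2% of the counts of each library, and the number of risen peaks was the same without it. FP replicate 3 stood furthest from the rest, with a mean correlation of log2 CPM (counts scaled to the library total) of 0.819 to the other libraries, where the other 8 lay between 0.840 and 0.877. Chi-square per degree of freedom between replicates ran from 9.52 to 27.3, so no library was a repeat of another. The labels do not say that each library came from a separate mouse, so the p-values measure the spread between these libraries. The labelled cell type was checked at start sites: all 6 Treg markers had a start-site peak, and their summed CPM was 59.6 to 82.3 in treated and 67.7 to 74.0 in PBS libraries. Among 9 T cell markers 8 had one, Trac being the exception, with sums of 34.5 to 51.7 CPM in treated and 37.95 to 57.7 CPM in PBS libraries. The Cd4 peak had 0.428 to 2.31 CPM. Cr2, Cd8b1 and Fcgr3, of the B cell, CD8 and myeloid lists, were higher in every library, with lowest values of 6.94, 6.19 and 6.70 CPM. Of 10 B cell markers 7 had no start-site peak, Ms4a1 and Pax5 among them, with sums of 9.45 to 14.97 in treated and 9.49 to 18.2 CPM in PBS libraries. The CD8 T cell markers lacked a start-site peak at Cd8a and had a sum of 19.0 to 28.5 CPM in treated, against 27.96 to 38.2 CPM in PBS libraries. The part of this in the results below was not tested. The NK cell sums were 7.68 to 14.5 CPM in treated and 8.70 to 16.2 CPM in PBS libraries, and the myeloid sums 22.8 to 38.3 CPM in treated and 26.6 to 38.6 CPM in PBS libraries. The erythroid sums, from 2 of 11 markers and with no globin start-site peak, were 14.5 to 22.3 CPM in treated and 16.7 to 22.9 CPM in PBS libraries.

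After either IL-2 form a small set of peaks was more accessible at 0.75 h, and 2 peaks were less accessible. Of 100468 peaks tested, 232 rose (0.231%) and 2 fell (0.00199%) at an adjusted p under 0.05 in edgeR's quasi-likelihood test. The risen peaks were assigned to 178 gene names, and since deposited peaks can overlap they made 191 separate regions. Their log2 fold changes ran from 0.75 to 5.45 with a median of 1.69 and quartiles of 1.45 and 2.00, where the median over all tested peaks was 0.00. In 227 of the 232, all 6 treated libraries lay above all 3 PBS libraries, which held for 1.97% of all tested peaks. The opposite held for both fallen peaks and for 1.03% of all. The called peaks were chosen on these same libraries, so the separation was largely fixed by the choice and is a description. It was also required of peaks named below for a large rise, a low p or a large fall. The exceptions among the risen were Pde4d, Smyd3 and 3 overlapping peaks of Psmd14. At a looser level, 3352 peaks were higher at an unadjusted p under 0.05 (3.34%) and 1476 were lower (1.47%).

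Summed over the 232 peaks, accessibility was 3403, 2946 and 2592 CPM in FP, 4585, 4035 and 4359 CPM in IL2 and 1385, 1352 and 1218 CPM in PBS libraries. The IL2 libraries were highest, the FP libraries intermediate, and no groups overlapped; the peaks were chosen on these values, so the sums are a description. In sorted cells, a larger share of cells with an open site and a wider opening in each cell cannot be told apart.

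The number of calls rested on single libraries. Without PBS replicate 3 no peak passed in edgeR, with a lowest adjusted p of 0.0717 and 4039 peaks at an unadjusted p under 0.05, and without PBS replicate 1 only 2 rose. The number of risen peaks was 76 without PBS replicate 2, 77, 101 and 50 without IL2 replicates 1, 2 and 3, 112 without FP replicate 1, 190 without FP replicate 2 and 487 without FP replicate 3. In each of these 9 fits all 232 peaks kept a positive log2 fold change and an unadjusted p under 0.05, with medians of 1.60 to 1.76. The 232 were chosen on these same libraries, so this was largely fixed by the choice and is a description. Of 35 called peaks singled out, 32 by the rule for naming genes and 3 (Iqub, Sgk3 and Rexo5) after their values were seen, 0 passed without PBS replicate 3 and 1 without PBS replicate 1, and 18 to 35 passed in the other 7 fits. Klf3, Nrp1, Iqub, Sgk3 and Rexo5 passed in 1 of the 9 fits each.

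**Figure D1:**
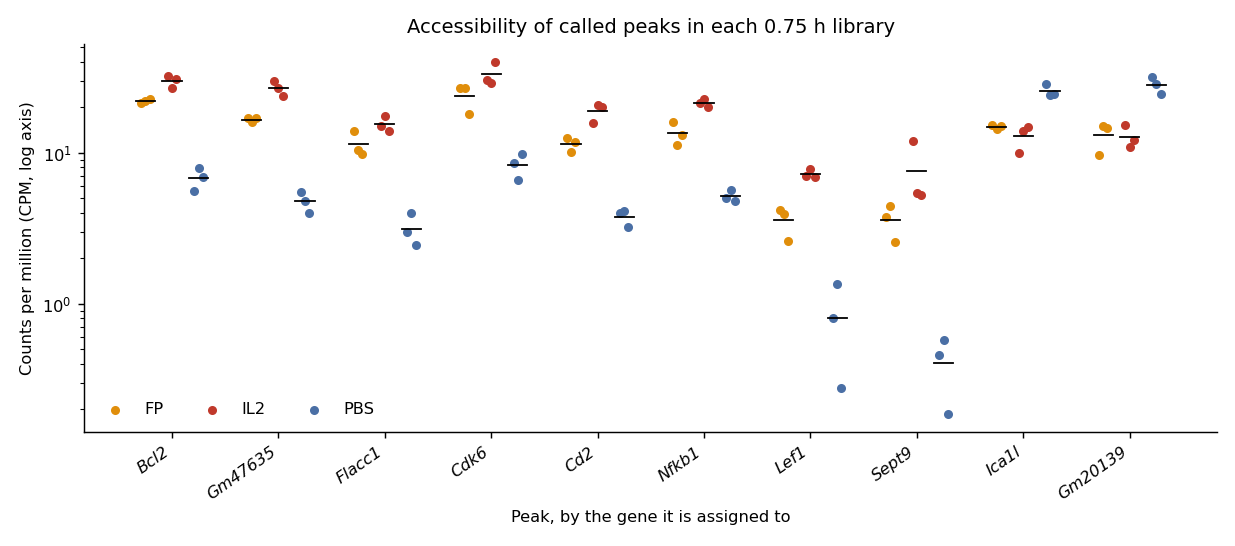
Accessibility in CPM (log axis) of 10 called peaks in each 0.75 h library, in the order FP, IL2 and PBS for each peak; points are libraries and black lines the means of 3. At the 8 risen peaks every FP and IL2 point lies above every PBS point, and at Ica1l and Gm20139 every FP and IL2 point lies below. The peaks were chosen on these values, so the separation is a description.

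Risen peaks lay at survival and cell cycle genes. The lowest p belonged to a peak in Bcl2, which encodes an inhibitor of apoptosis and is a known STAT5 target. It had 21.3, 22.0 and 22.6 CPM in FP and 32.3, 26.7 and 30.8 CPM in IL2, against 5.55, 7.95 and 6.88 CPM in PBS libraries. The FP values lay between those of IL2 and PBS with no overlap. The peak (chr1:106606895-106607640) rose by 1.93 ± 0.22 on the log2 scale (SE, adjusted p = 0.00282). It holds 2 GAS motifs, 1 of them shown above. It is labelled promoter in the deposited annotation but lies in an intron in GENCODE, 397 bases from the start of Gm37053, a transcript annotated there. A pair of further Bcl2 peaks, at chr1:106612369-106613381 and chr1:106616970-106617349, rose by 0.98 ± 0.19 and 1.91 ± 0.36, so 3 of 42 Bcl2 peaks tested were called. Of the 107 peaks of the 12 BCL2 family genes these 3 were called in edgeR (2.80%, against 0.231% of all peaks) and 5 rose in DESeq2. In DESeq2 765 of all 100468 peaks rose, which is the reference for the DESeq2 counts of every list below. Bcl2l1 and Mcl1, which encode related survival proteins, had most abundant peaks at -0.08 ± 0.17 and 0.11 ± 0.30.

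Cdk6 encodes a kinase that drives exit from G1. Its peak at chr5:3477644-3478642, in an intron and 2730 bases from the start of the antisense gene Gm17590, had 26.9, 26.7 and 18.1 CPM in FP and 30.3, 28.8 and 40.1 CPM in IL2, against 8.50, 6.60 and 9.81 CPM in PBS libraries. All treated values were above the PBS values, and the lowest was FP replicate 3. It rose by 1.78 ± 0.24 (adjusted p = 0.00689) and was 1 of 2 called among 37 Cdk6 peaks. No other of the 131 peaks of 18 cell cycle genes was called in edgeR (2 of 131 in all, or 1.53%, against 0.231% of all peaks) or in DESeq2 (2 in all). At an unadjusted p under 0.05, 5 of the 131 were higher (3.82%) and 2 lower (1.53%), near the 3.34% and 1.47% of all peaks. Ccnd2 (cyclin D2) and Myc, both STAT5-responsive in T cells, were at 0.25 ± 0.20 and 0.23 ± 0.20. The 29 IL-2 and STAT5 target genes had 6 risen peaks of 287 in edgeR (2.09%, against 0.231% of all peaks) and 13 in DESeq2. In edgeR they were the 3 of Bcl2, the pair of Cdk6 and 1 near Ecm1, whose product is an extracellular matrix protein, at 1.72 ± 0.34. The median over these 287 peaks was 0.09.

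No peak assigned to the receptor and its signalling genes in the deposited annotation was called in edgeR. Risen peaks assigned to Gm17490, at chr2:11620060-11629989, lie near Il2ra and were not counted here. Of 107 peaks at 11 genes of the IL-2 receptor, JAK and STAT5, 0 passed in edgeR and 2 in DESeq2, and 13 were higher (12.1%, against 3.34% of all peaks) and 0 lower at an unadjusted p under 0.05, with a median of -0.06. Il2ra accounted for 9 of the 13: of its 24 peaks, 9 were higher at that level and the median of the 24 was 0.78. The Il2ra peak of lowest p, chosen after its values were seen, is intronic, at chr2:11651481-11651803, and holds 2 GAS motifs. It had 3.52, 2.98 and 3.77 CPM in FP and 5.79, 2.26 and 4.32 CPM in IL2, against 1.11, 1.49 and 1.63 CPM in PBS libraries. Treated and PBS values did not overlap, and the difference was 1.42 ± 0.37 (adjusted p = 0.183 in edgeR and 0.0189 in DESeq2). The Il2rb peak of lowest p, intergenic and also chosen after its values were seen, stood at 1.31 ± 0.31 (adjusted p = 0.0990 in edgeR and 0.00353 in DESeq2). Its adjusted p in edgeR was 0.0433 without FP replicate 3 and 0.0388 without PBS replicate 2. The most abundant peaks of Il2ra and Il2rb, set by the naming rule, stood at 0.75 ± 0.25 and 0.58 ± 0.25. Their adjusted p in edgeR was 0.499 and 0.930, and treated and PBS values overlapped at both. The start-site peak of Stat5a and the most abundant peak of Stat5b were at -0.10 ± 0.32 and 0.05 ± 0.29.

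Among 186 peaks of 18 feedback inhibitors of cytokine signalling, 1 was called in edgeR (0.538%, near the 0.231% of all peaks) and 3 rose in DESeq2. The edgeR call lay 22014 bases from the start of Ptpn1, the gene of a tyrosine phosphatase known to dephosphorylate JAK kinases, at chr2:167909933-167910693. It had 3.22, 5.08 and 3.12 CPM in FP and 7.80, 8.73 and 5.57 CPM in IL2, against 0.996, 0.915 and 0.326 CPM in PBS libraries, with FP between IL2 and PBS. It rose by 2.89 ± 0.46 (adjusted p = 0.0111) and holds no GAS motif. Cish, the classical early STAT5 target, had 9.93, 13.1 and 4.71 CPM in FP and 13.0, 16.8 and 10.4 CPM in IL2, against 2.99, 6.98 and 2.37 CPM in PBS libraries at its start site. FP replicate 3 lay below PBS replicate 2, so the groups overlapped. The difference of 1.47 ± 0.37 had an adjusted p of 0.157 in edgeR, 0.00892 in DESeq2 and 0.0218 in edgeR without FP replicate 3. Of the 6 Cish peaks, 4 were higher at an unadjusted p under 0.05, and the median of the 6 was 0.96. The start-site peak had the lowest p of the 6 and was chosen after its values were seen. The most abundant of the 6 was at 0.17 ± 0.22. The start-site peaks of Socs2, Socs1 and Socs3 stood at 0.57 ± 0.22, 0.13 ± 0.21 and 0.13 ± 0.22 and did not pass.

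Of the 12 largest rises picked by the rule, 3 were at Ikzf3, Lef1 and Ikzf1. Ikzf3 (Aiolos) and Ikzf1 (Ikaros) are related zinc-finger regulators of lymphoid development. A peak 782 bases from the Ikzf3 start had 3.52, 4.15 and 3.47 CPM in FP and 8.08, 6.31 and 5.15 CPM in IL2, against 0.919, 1.11 and 0.186 CPM in PBS libraries. All FP values lay between the IL2 and the PBS values, and the peak rose by 2.78 ± 0.47 (adjusted p = 0.0175). An intronic Ikzf1 peak rose by 2.58 ± 0.50 (adjusted p = 0.0318). Ikzf2 (Helios), the family member that marks thymic Tregs, had no call in 38 peaks in edgeR, with 4 higher at an unadjusted p under 0.05, and its start-site peak was at -0.10 ± 0.24. The Ikzf2 peak of lowest p, intronic with 1 GAS motif and chosen after its values were seen, stood at 1.49 ± 0.41 (adjusted p = 0.227 in edgeR and 0.0286 in DESeq2).

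Genes linked to resting and lymphoid-homing T cells had 6 risen peaks of 385 in edgeR (1.56%, against 0.231% of all peaks) and 17 in DESeq2. Lef1 encodes a high-mobility-group factor of the TCF family. Its intronic peak at chr3:131148829-131149481 had 4.195, 3.91 and 2.61 CPM in FP and 6.99, 7.78 and 6.93 CPM in IL2, against 0.804, 1.35 and 0.279 CPM in PBS libraries, with no overlap between any groups. It rose by 2.73 ± 0.48 (adjusted p = 0.0190). Further rises of the list were in Klf3, a Krüppel-like repressor, at 1.91 ± 0.39, at a pair of overlapping peaks in Foxp1, a forkhead factor of T cell quiescence, at 1.58 and 1.80, and in Bach2, a repressor of effector differentiation, at 1.22 ± 0.19. The Bach2 peak had 27.8, 27.5 and 24.2 CPM in FP and 35.1, 36.9 and 29.0 CPM in IL2, against 13.8, 13.0 and 12.1 CPM in PBS libraries. Tcf7, Klf2, Satb1 and Il7r of the same list had no call in edgeR. At an unadjusted p under 0.05, 35 of the 385 were higher (9.09%, against 3.34% of all peaks) and 21 lower (5.455%, against 1.47%), and the list's median was 0.01. Foxp1 alone, with 114 peaks tested, supplied 25 of the 35 and 11 of the 21.

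Treg identity genes had 2 calls in 217 peaks in edgeR (0.922%, against 0.231% of all peaks) and 7 in DESeq2, with 23 higher (10.6%, against 3.34%) and 0 lower at an unadjusted p under 0.05. Il2ra is in this list too, and 9 of the 23 are its peaks already counted in the receptor list. An intronic peak of Nt5e, 10588 bases from its start, which encodes CD73, an enzyme that makes adenosine, had 3.13, 1.62 and 1.24 CPM in FP and 3.94, 2.102 and 4.28 CPM in IL2, against 0.268, 0.145 and 0.186 CPM in PBS libraries. The treated values were all above PBS at low abundance, and the peak rose by 3.72 ± 0.58 (adjusted p = 0.0101). The other call lay 113874 bases from the nearest start site, within Nrp1 (neuropilin-1, a surface marker of thymic Tregs), at 2.31 ± 0.47 (adjusted p = 0.0469), and stood at 3.20 without PBS replicate 1 (adjusted p = 0.0660). Foxp3, the defining factor, was not called. Its intronic peak 2191 bases from the start, with 3 GAS motifs, had 13.3, 12.7 and 9.84 CPM in FP and 17.4, 19.2 and 21.2 CPM in IL2, against 12.3, 8.86 and 7.86 CPM in PBS libraries. FP overlapped PBS and IL2 did not. The pooled difference was 0.69 ± 0.25 (adjusted p = 0.675), and a peak that the table gives to Ppp1r3f, Flicr and Foxp3 together stood at 0.03 ± 0.20. Effector Treg genes had 0 calls of 197 peaks in edgeR and in DESeq2, with 5 higher (2.54%) and 3 lower (1.52%) at an unadjusted p under 0.05, near the 3.34% and 1.47% of all peaks, and the most abundant Ctla4 peak was at -0.28 ± 0.21.

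The NF-kB and TNF receptor list had 2 calls in 206 peaks in edgeR (0.971%, against 0.231% of all peaks) and 6 in DESeq2. At an unadjusted p under 0.05, 14 were higher (6.80%, against 3.34%) and 5 lower (2.43%, against 1.47%). Nfkbiz supplied 6 of the 14, and the median of its 12 peaks was 0.70. Nfkb1 encodes the p105 precursor of the p50 subunit, and its peak at chr3:135604427-135605216 had 16.0, 11.3 and 13.0 CPM in FP and 21.5, 22.8 and 20.0 CPM in IL2, against 5.02, 5.68 and 4.79 CPM in PBS libraries. The 3 groups were apart from each other, and the peak rose by 1.75 ± 0.26 (adjusted p = 0.00772). It has no GAS motif and lies in an intron, 49745 bases from the nearest start site. Birc3, an inhibitor of apoptosis induced by NF-kB, rose at an intronic peak by 1.22 ± 0.24 (adjusted p = 0.0321). Lta, which encodes lymphotoxin alpha, differed at its start site by 1.69 ± 0.39 without passing (adjusted p = 0.0899 in edgeR and 0.00154 in DESeq2).

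Further named rises were at Cd2, Sema4d, Itga4 and Hbb-bt. A peak 12182 bases from the nearest start site and assigned to Cd2, an adhesion receptor of T cells, had 12.5, 10.1 and 11.9 CPM in FP and 15.6, 20.8 and 20.0 CPM in IL2, against 3.98, 4.09 and 3.21 CPM in PBS libraries. All treated values were above PBS, and it rose by 2.01 ± 0.28 (adjusted p = 0.00689). Sema4d, which encodes the semaphorin CD100, rose by 2.65 ± 0.36 (adjusted p = 0.00689), with 10.7, 7.61 and 10.9 CPM in FP and 23.6, 17.1 and 14.7 CPM in IL2, against 1.42, 2.79 and 2.56 CPM in PBS libraries. An intronic peak of Itga4, the alpha chain of an integrin for homing, rose by 1.43 ± 0.28 as the 1 call in 169 chemokine receptor and integrin peaks (0.592%, near the 0.231% of all peaks). A peak 1551 bases from the beta-globin gene Hbb-bt rose by 1.90 ± 0.29. It was the 1 call among 32 erythroid marker peaks, of which 10 were higher at an unadjusted p under 0.05 and whose median was 0.30. Their part in this result was not tested.

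The largest rise among peaks with a mean log2 CPM of at least 1 was in Sept9, which encodes a septin of the cytoskeleton. Its intronic peak held the pair of GAS motifs shown above and had 3.75, 4.42 and 2.57 CPM in FP and 11.9, 5.44 and 5.27 CPM in IL2, against 0.460, 0.578 and 0.186 CPM in PBS libraries. IL2 replicate 1 was far above the rest. The rise was 3.75 ± 0.53 (adjusted p = 0.00772) and 3.38 without that library. Gm47635, a processed pseudogene, was assigned the intergenic peak of second lowest p. It had 16.9, 16.0 and 16.9 CPM in FP and 29.7, 26.8 and 23.7 CPM in IL2, against 5.48, 4.82 and 4.00 CPM in PBS libraries, with no overlap between any groups, and rose by 2.18 ± 0.26 (adjusted p = 0.00282). The rule also named Lncpint (a long noncoding RNA) at 3.04, Sipa1l2 (a regulator of Rap GTPases) at 2.73, Gm17767 at 2.72, Leprotl1 at 2.71, Gm17490 at 2.53 (3.22 without PBS replicate 2), Ccdc146 at 2.46, Reps1 at 2.46, Flacc1 at 2.09 and Ccdc80 at 1.79.

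Some genes had several risen regions, others several overlapping rows of 1 region. Jazf1 had 10 risen peaks, Sgpp1 7 and Man1a 6, but each set merged to 1 region and shares its reads. Bcl2, Dthd1, Fhit and Gm17490 had 3 separate risen regions each. The 3 Gm17490 regions spanned chr2:11620060-11629989, with log2 fold changes of 1.40 to 2.89, and the Il2ra peak described above begins at chr2:11651481.

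Lists with no risen peak in edgeR were AP-1 and immediate early genes, T cell receptor signalling, PI3K, mTORC1 and MYC metabolism, helper lineage factors, interferon response and constitutive genes. Over all tested peaks 3.34% were higher and 1.47% lower at an unadjusted p under 0.05. Of 133 AP-1 peaks 0 were called in edgeR or DESeq2, with 1 higher (0.752%) and 5 lower (3.76%) at that level. Of 359 T cell receptor signalling peaks 0 were called in edgeR, 5 rose and 1 fell in DESeq2, and 18 were higher (5.01%) and 4 lower (1.11%) at that level. The metabolism list had 0 calls of 162 by either tool (5 higher and 1 lower), the helper list 0 of 173 (7 and 6) and the interferon list 0 of 144 (4 and 0), with medians of 0.05, 0.05 and 0.21. The higher shares were 3.09, 4.05 and 2.78%, and the lower shares 0.617, 3.47 and 0%. Of 74 constitutive peaks 0 were called in edgeR and 1 in DESeq2, with 3 higher (4.05%) and 0 lower.

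The 2 peaks that fell were in Ica1l and Gm20139. The Gm20139 peak, in an intron of a long noncoding RNA, had 9.68, 15.03 and 14.5 CPM in FP and 15.3, 11.0 and 12.1 CPM in IL2, against 31.8, 28.5 and 24.6 CPM in PBS libraries. Treated and PBS values did not overlap, and FP and IL2 were interleaved. It fell by 1.13 on the log2 scale (SE 0.19, adjusted p = 0.0158), and passed in 5 of the 9 fits that left out a library, not without IL2 replicate 3 or any 1 of the PBS replicates. The Ica1l peak had 15.3, 14.3 and 15.2 CPM in FP and 10.0, 13.9 and 14.9 CPM in IL2, against 28.5, 24.3 and 24.5 CPM in PBS libraries, and fell by 0.89 (SE 0.18, adjusted p = 0.0467). It passed in 1 of the 9 fits that left out a library, with an adjusted p of 0.0321 without FP replicate 3. Neither peak has a GAS motif.

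Few of the risen peaks lay at start sites. In GENCODE 159 of the 232 (68.5%) were in introns, against 46.9% of all tested peaks, 63 were intergenic and 10 exonic. Within 1 kb of a transcription start were 15 (6.47%), against 26.9% of all tested peaks. The risen peaks were wider, with a median of 701 against 379 bases, more accessible, with a median of the mean log2 CPM of 2.98 against 1.08, and lower in GC, at 43.4% against 49.0%. Wide peaks can hold more motifs, so motif shares are given first for the central 200 bases.

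The GAS motif was far more frequent in the risen peaks than in all tested peaks. TTCNNNGAA, searched on both strands, was in the central 200 bases of 136 of the 232 risen peaks (58.6%), against 7.14% of all tested peaks. In the whole peak it was in 206 (88.8%), against 13.8%, and 89 (38.4%) held at least 2, against 1.81%. Counted by region, 171 of 191 (89.5%) had one. The same half-sites 2 bases apart (TTCNNGAA) were in 9.91% of the risen centres against 5.48% of all, 4 bases apart in 13.8% against 5.16%, and swapped (GAANNNTTC) in 9.48% against 4.77%. All 4 patterns were more frequent in risen peaks, and the difference was widest for the 3-base spacer.

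Other motifs differed less. TCF/LEF (CTTTGAA) was in 15.1% of risen centres against 5.10% of all, RUNX (TGTGGTT) in 14.7% against 7.16%, a GATA factor motif (AGATAA) in 17.2% against 9.58%, AP-1 (TGANTCA) in 11.2% against 7.20% and NFAT (TGGAAA) in 21.1% against 15.8%. CTTTGAA can lie inside a GAS motif, as in TTCTTTGAA of the Flacc1 window and, read on the other strand, in TTCAAAGAA of the Lef1 window. Rarer in risen centres were SP/KLF (GGGCGGG), in 2.16% against 9.79%, the NF-kB motif, in 5.60% against 11.9%, and the CTCF motif, in 0 of 232 against 1.27%. Among peaks over 1 kb from a start site the gaps were smaller for SP/KLF, in 2.30% of risen against 3.53% of all, and for NF-kB, in 5.99% against 9.51%, and the GAS share was 57.1% against 8.16%. A match is a run of letters, and no binding was measured.

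The share with a GAS motif followed the strength of the evidence for a rise. In peaks that were higher in treated libraries it was 59.5% of 210 at an unadjusted p under 0.0001, 53.4% of 365 between 0.0001 and 0.001, 48.1% of 884 between 0.001 and 0.01, 30.4% of 1893 between 0.01 and 0.05, and 7.28% of the 47419 at 0.05 or above. In peaks that were lower it was 0.995% of 201 between 0.001 and 0.01, 4.69% of 1258 between 0.01 and 0.05 and 4.85% of 48221 at 0.05 or above, and 0 of the 17 peaks below 0.001.

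**Figure D2:**
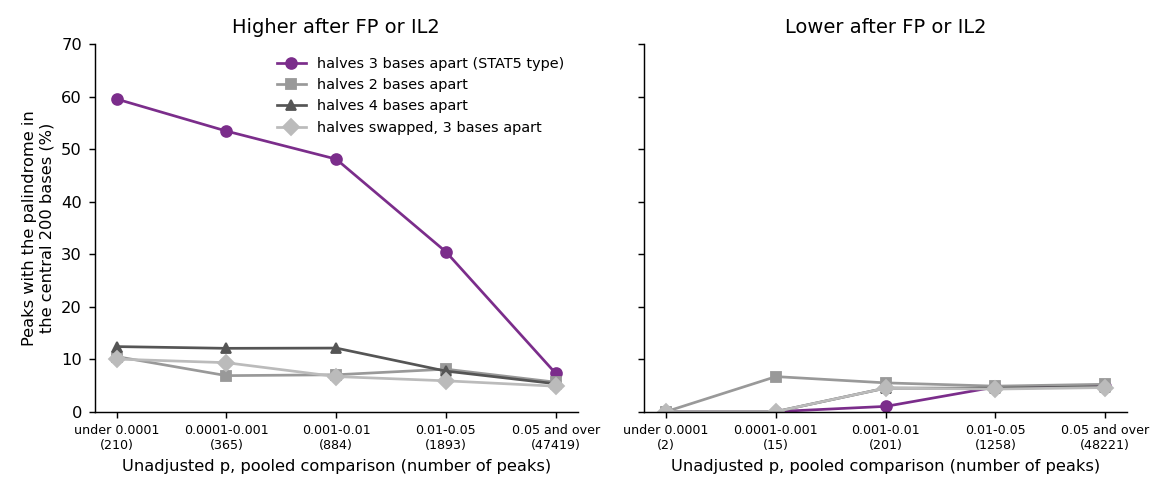
Share of peaks with the GAS motif and with 3 altered palindromes in the central 200 bases (y axis, %), by unadjusted p of the pooled comparison (x axis, number of peaks in brackets), for peaks higher (left) and lower (right) in treated libraries. Among higher peaks the GAS share climbs from 7.28% to 59.5% toward low p, and the altered palindromes stay at or below 12.4%.

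The values also differed by the number of motifs. Of 67441 peaks over 1 kb from a start site with no GAS motif in the centre, 0.138% rose and the median log2 fold change was -0.003. With 1 motif (5588 peaks) 1.77% rose and the median was 0.25, and with 2 or more (400 peaks) 6.25% rose and the median was 0.77. For the palindrome with a 2-base spacer the medians were 0.01, 0.04 and 0.09 for 0, 1 and at least 2 motifs. GAS motifs of risen peaks lay a median of 83 bases from the peak centre, against 115 bases in all tested peaks, though risen peaks are wider and overlapping peaks share sites.

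The spacer letters differed between sites in risen and in all tested peaks. With each site in overlapping peaks counted 1 time, TTCTNAGAA or its reverse complement made up 33.3% of the 279 sites in risen peaks, against 17.9% of the 12692 sites in all tested peaks, and TTCCNAGAA 29.4% against 20.9%. TTCANAGAA was less frequent, at 16.1% against 23.5%, as was TTCANGGAA at 3.94% against 11.1% and TTCANTGAA at 1.43% against 5.93%. The Bcl2, Cdk6, Gm47635 and Ikzf3 sites shown above are of the TTCTNAGAA form.

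The 26 risen peaks with no GAS motif, Ptpn1, Nt5e and Nfkb1 among them, had a median log2 fold change of 1.80, against 1.68 in the 206 with one, and 4 of the 26 overlap a risen peak that has one.

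A shift also showed in peaks that were not called. Peaks over 1 kb from a start site with a GAS motif in the centre (5988 peaks) took 8.82, 8.74 and 7.93% of the counts of all 73429 peaks at that distance in FP and 10.1, 9.56 and 9.73% in IL2, against 7.20, 7.31 and 7.02% in PBS libraries. The 3 groups were apart. Over the 5864 of these peaks that were not called the shares were 8.24, 8.21 and 7.48% in FP and 9.33, 8.86 and 8.97% in IL2, against 6.96, 7.07 and 6.81% in PBS libraries, in the same order without overlap. For the 4299 distal peaks with the 2-base spacer they were 5.15, 5.29 and 5.23% in FP and 5.45, 5.29 and 5.32% in IL2, against 5.04, 5.02 and 5.04% in PBS libraries, a much smaller separation.

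**Figure D3:**
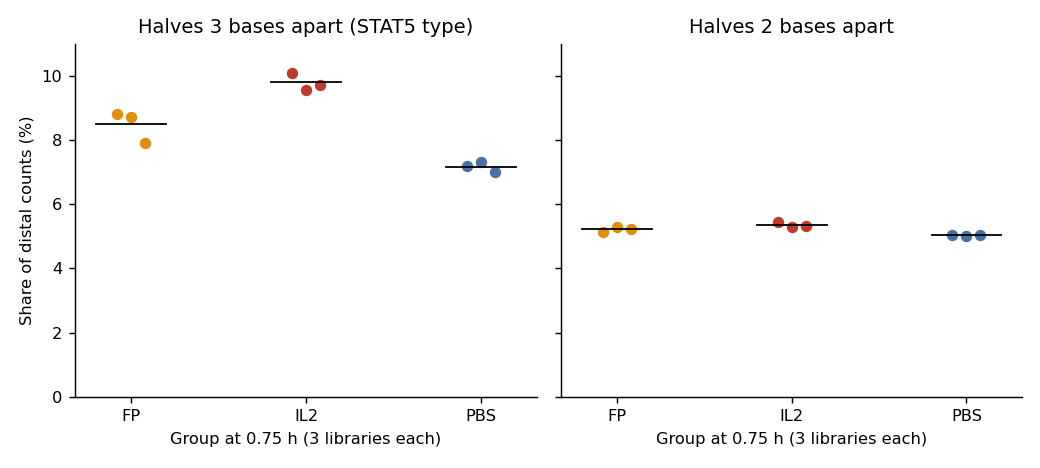
Share of the counts in distal peaks (y axis, %) that fell in peaks with the GAS palindrome (left) or with the half-sites 2 bases apart (right), per 0.75 h library; black lines are means of 3. On the left FP sits at 7.93 to 8.82%, IL2 at 9.56 to 10.1% and PBS at 7.02 to 7.31%; on the right all libraries lie between 5.02 and 5.45%.

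Fitted apart, the forms gave lower values for FP than for IL2 at the risen peaks. Each of the 232, which were chosen on the pooled value, had a positive log2 fold change over PBS for each form, with a median of 1.38 for FP and 1.96 for IL2. FP alone had 2 calls over all peaks (0.00199%), the Bcl2 and Gm47635 peaks above, and IL2 alone had 490 rises (0.488%) and 9 falls. FP rises numbered 25 without FP replicate 3, 2 without IL2 replicate 2 and 0 without any other 1 library. IL2 rises numbered 206 and 201 without IL2 replicates 1 and 3, and 218 and 187 without PBS replicates 1 and 3. Of the 232 pooled rises 229 were also called for IL2, which is 46.7% of the IL2 rises and 98.7% of the pooled rises; both comparisons use the same PBS and IL2 libraries. The 261 IL2 rises that did not pass when pooled had medians of 0.90 for FP and 1.62 for IL2; they were chosen on IL2, and both values rest on the same PBS libraries, so the medians are a description. The other 3 pooled rises, in Rexo5, near Iqub and in Sgk3, were called for neither form alone. At Sgk3, which encodes a kinase of the PI3K pathway, the FP and IL2 values were 1.40 and 1.36, and at Rexo5 1.15 and 1.00.

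The difference between the forms was tested directly. No peak was called for FP over IL2 in edgeR, with a lowest adjusted p of 1, 3677 peaks at an unadjusted p under 0.05 (3.66%) and 6 calls in DESeq2. Over the 232 risen peaks the FP over IL2 log2 ratio had a median of -0.59 and ran from -1.33 to 0.15, and it was below 0 in 230 (99.1%), against 48.3% of all tested peaks. An unadjusted p under 0.05 was reached in 113 of the 232 (48.7%), against 3.66% of all. In CPM, the FP rise over PBS was a median of 53.7% of the IL2 rise, with quartiles of 46.3 and 65.6%. Without FP replicate 3, the treated library with the lowest sum over these peaks, the median ratio was -0.50 and 227 of 232 were below 0, with 57 at an unadjusted p under 0.05. Without IL2 replicate 1 these were -0.54, 227 and 56. Dose, form and library cannot be told apart in this difference.

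**Figure D4:**
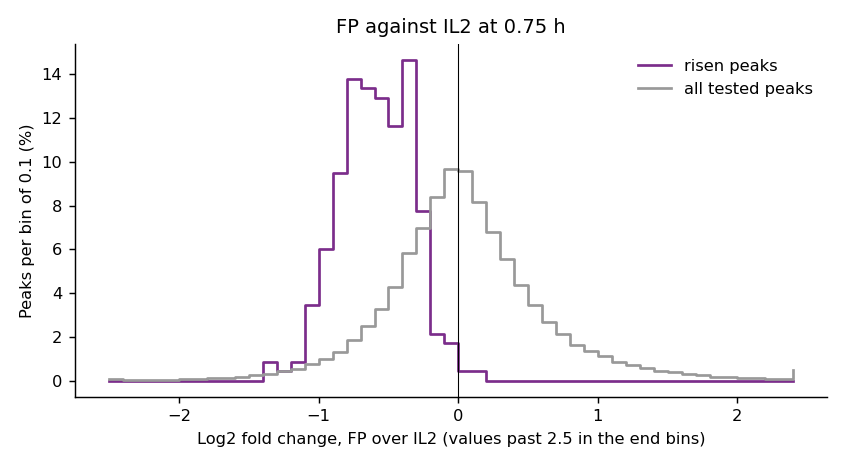
Distribution of the log2 fold change of FP over IL2 at 0.75 h (x axis) for the 232 risen peaks (purple) and all 100468 tested peaks (grey), as percent of peaks per bin of 0.1 (y axis). The risen peaks lie left of 0 with a median of -0.59, and all tested peaks centre on 0.02.

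The later libraries of the series, each with a PBS group of its own time, were not used to choose the 232 peaks. At 16 h, 61 of them were called up for FP, where 115 of 100771 peaks were (0.114%), so they made up 53.0% of that comparison's rises. Their median log2 fold change for FP at 16 h was 1.22, with 228 of 232 above 0. For IL2 at 16 h none of the 232 was called, as no peak was in edgeR (3645 at an unadjusted p under 0.05), and the median was -0.005 with 115 above 0. Whether FP and IL2 differed at 16 h was not tested here. At 72 h, 0 of 232 were called for FP (0 of all peaks, 5236 at an unadjusted p under 0.05), with a median of 0.51 and 200 above 0. At 168 h, 0 were called (0 of all peaks, 4658 at an unadjusted p under 0.05), the median was 0.01 and 119 were above 0.

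Single peaks differed in these values. The Bcl2 peak stood at 1.95 for FP at 16 h (adjusted p = 0.00263) and 0.18 for IL2, and the Cdk6 peak at 1.80 (adjusted p = 0.00223) and 0.33. The Cd2 peak stood at 2.88 for FP at 16 h (adjusted p = 0.00263), Gm47635 at 2.12, Ccdc80 at 2.08, Gm17767 at 2.08 and Itga4 at 1.63, all called. Ikzf3, Ccdc146, Foxp1 and Nrp1 stood at 0.19, 0.54, 0.46 and 0.52 for FP at 16 h and did not pass. The fallen peaks were not called later: Gm20139 and Ica1l had FP values of -0.51 and -0.51 at 16 h and 0.08 and 0.00 at 72 h, none called.

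**Figure D5:**
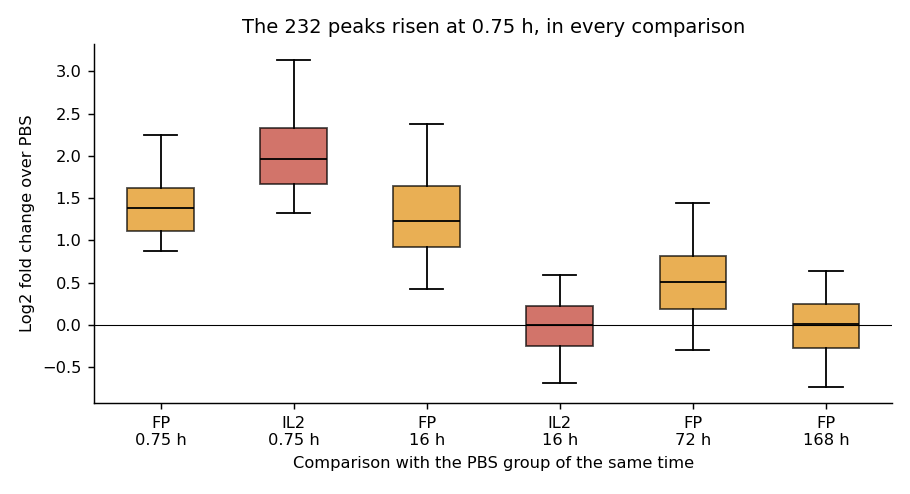
Log2 fold change over the PBS group of the same time (y axis) of the 232 peaks risen at 0.75 h, for each form and time (x axis). Boxes give the median and quartiles and whiskers the 5th to 95th percentiles over peaks; medians are 1.38 (FP) and 1.96 (IL2) at 0.75 h, 1.22 (FP) and -0.005 (IL2) at 16 h, and 0.51 and 0.01 for FP at 72 and 168 h.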

How the data were processed

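BWA mapping to GRCm38 (mm10) and peak calling with MACS2 2.1.2 are named in the submitters' processing notes. No read counter, common peak set or removal of duplicates is given there. The authors deposited whole-number read counts per peak, not normalized; the first sample column, recorded as another unit because commas inside gene names shift it, holds deposited counts too, and fields were taken from the right end of each line. No sample column was left unmapped (0). For 16 h, a column could be tied only to its group.

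The sample identifiers of the 0.75 h libraries share a date, and no batch label was found among them. Libraries that share a replicate number deviated together across groups, with correlations given in the last section. Groups came from the sample titles, since the labels' treatment protocol gives 0.75 h for all samples. In R 4.3.3, edgeR 4.0.16 (TMM, filterByExpr with minimum count 10 and total 15, quasi-likelihood F test, two-sided, Benjamini-Hochberg over all tested peaks, threshold 0.05) was fitted to the 9 libraries as 6 treated and 3 PBS, and again as 3 groups. The biological coefficient of variation was 43.2% with 7 residual degrees of freedom. SE is the log2 fold change divided by the square root of F. CPM values use library totals scaled by TMM. On simulated counts for the pooled comparison, over 100468 peaks, 96% of 4-fold and 22% of 2-fold changes were recovered, of 100 each, with 3 false calls. The changed peaks were all rises, drawn from peaks with a mean log2 CPM above 1, so recovery at weaker peaks was not measured. Depth was 18644680 to 34049267 counts per library.

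DESeq2 1.42.0 and other scalings, filters, covariates and left-out libraries were alternatives. Peak locations were taken from GENCODE M21 (basic) and motifs were searched in the GRCm38 sequence with Python 3.11.15. Deposited gene assignments were used, of which 97.3% were GENCODE names. Named peaks were the 12 largest rises, the 8 of lowest p and the 5 largest falls with a mean log2 CPM of at least 1 and separated groups, called peaks of 23 gene lists, and 24 set genes with their most abundant peak; others were chosen after their values were seen, and some are not reported here. The comparison, gene lists and motifs were chosen with earlier results of these data known.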

Additional observations from a re-analysis of the deposited data

Results flagged for a closer look

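Of 67 items examined over the 6 treated libraries, 4 had a library whose gap to the nearest other exceeded Dixon's critical share of the range for 6 values; about 1 in 20 groups does so by chance. The Sept9 peak had 11.9 CPM in IL2 replicate 1, far above the other treated libraries. The Ccnd2 peak, assigned also to 9330179D12Rik, had 34.8 CPM in the same library. The Ica1l peak had 10.0 CPM there, below the others. The intergenic Cish peak had 7.87 CPM in FP replicate 3, below the others.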

How the results depend on the processing

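At this depth, spread and number of libraries, few 2-fold changes were recovered on simulated data, and the calls turn on each of the 3 PBS libraries. The number of risen peaks (232) was 513 with the replicate block, 765 with DESeq2, 352 with a mean log2 CPM of at least 1 and 93 with library total as covariate, and 0 to 487 with 1 library left out. Merging overlapping peaks gave 191. The number of fallen peaks (2) was 9 with the replicate block, 30 with DESeq2, 1 with library totals as scaling, 0 with library total as covariate and 0 to 7 with 1 library left out. For IL2 over PBS, 499 peaks called became 983, 1116 and 286 with the block, DESeq2 and the covariate, and 187 to 591 with 1 library left out. For FP over PBS, 2 became 129, 222, 5 (library totals), 10 (no low-count filter), 23 (mean log2 CPM of at least 1), 0 (covariate) and 0 to 25 with 1 library left out. FP over IL2, 0, became 6 with DESeq2 and stayed 0 with each library left out. The cause of these shifts was not tested. Leaving out libraries was not run at the later times. In every pooled setting the 232 peaks that were fitted kept a positive log2 fold change and an unadjusted p under 0.05. The GAS share of 88.8% over the whole peak is that of the 232 from the main fit. No share is given for the risen peaks of other settings. The peaks were chosen in the main fit of the same libraries, so their sign and p in other settings are a description.

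Replicate numbers are shared between groups. Same-numbered libraries of different groups deviated together with correlations of 0.004 to 0.24, all above 0. For differently numbered libraries the correlations ran from -0.23 to 0.06. FP replicate 1 still correlated best with PBS replicate 2. The main fit did not use the numbers, so any structure they carry stayed in its spread. With the numbers as a block, 513 peaks rose in the pooled comparison and 129 were called for FP over PBS. Of the 35 called named peaks, the block kept 35 and the covariate 21. The block also called the peaks of Cish (1.55, adjusted p = 0.00670), Lta (adjusted p = 0.00979) and Il2rb (adjusted p = 0.0152) in edgeR.

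Among peaks that did not pass, signs turned in these cases. With library total as covariate, Socs1 was -0.099, Mcl1 -0.008, Prdm1 -0.015 and Pim1 -0.128. With 1 library left out, the lowest and highest were -0.009 and 0.273 for Mcl1, -0.158 and 0.215 for Stat5b, -0.063 and 0.114 for the peak shared by Ppp1r3f, Flicr and Foxp3, -0.245 and 0.333 for Pim1, -0.166 and 0.080 for Bcl2l1, -0.393 and 0.111 for Stat5a, -0.342 and 0.041 for Ikzf2 and -0.409 and 0.022 for Tcf7.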
